A study of Danio rerio with 4 samples.

Results

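The 10 genes described here encode the visual pigments of zebrafish cones and the proteins that carry their light signal: the cone opsin genes opn1sw1, opn1sw2, opn1mw1, opn1lw1 and opn1lw2, the transducin gene gnat2, the arrestin genes arr3a and arr3b, and the phosphodiesterase genes pde6c and pde6ha. They were found by gene symbol among the 22976 gene names of the deposited count table, and all 10 passed the filter on low counts. RNA had been sequenced from whole zebrafish (Danio rerio) of the AB strain at 7 days post fertilisation (dpf), taken from crosses between heterozygotes for tubgcp6, a gene of the gamma-tubulin ring complex that nucleates microtubules. Genotyping had sorted the offspring into tubgcp6 mutants and siblings, with 2 libraries in each group and no further treatment. The lesion in tubgcp6, the genotypes among the siblings, the number of embryos per library and any sharing of clutches are not part of the labels. The labels call the 2 libraries of each group biological replicates. Every p-value below rests on the spread of 4 libraries, and how much variation between animals or clutches that spread covers is not known.

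Cones are the photoreceptors of daylight and colour vision. Zebrafish have 4 cone types, sensitive to ultraviolet (UV), blue, green and red light, each named for the opsin it makes. Light activates the opsin, the opsin activates transducin, and transducin relieves the inhibition of a phosphodiesterase that breaks down cyclic GMP, which closes the ion channels of the outer segment. Kinases and arrestins then switch the opsin off, and guanylate cyclases with their calcium-sensing activators restore cyclic GMP. The green and the red opsins come from tandem gene copies that are switched on in sequence as the retina grows. In the RefSeq annotation of the assembly GRCz12tu, opn1mw1, opn1mw2, opn1mw3 and opn1mw4 are consecutive coding genes on chromosome 6, and opn1sw2, opn1lw1 and opn1lw2 are consecutive coding genes on chromosome 11. The UV opsin gene opn1sw1 lies on chromosome 4. None of the 10 genes lies on chromosome 25, which holds tubgcp6.

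Counts assigned to genes totalled between 14246582 and 20652276 per library. The mutated gene tubgcp6 stood at 30.1 and 29.2 CPM (counts per 1000000 counts of a library, after TMM scaling) in mutants against 35.3 and 38.9 CPM in siblings, a log2 fold change (mutant over sibling throughout) of -0.33 ± 0.10 (SE). That difference passed edgeR's quasi-likelihood test (adjusted p = 0.0123) but not DESeq2 (adjusted p = 0.0585). Without sibling replicate 2 it was -0.25 in edgeR (adjusted p = 0.267). Over all 20097 tested genes the median log2 fold change was 0.007.

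All 10 cone genes were lower in mutants. Their log2 fold changes ran from -1.47 to -0.71, with a median of -1.2, and their adjusted p-values in edgeR's quasi-likelihood test ran from 1.02e-13 to 0.0302. Of all tested genes, 21.0% were called lower by the same rule, and 43.9% were called in either direction. In 8 of the 10 the fall passed the test and was at least 2-fold, and both conditions held for 4.32% of all tested genes. In all 10 both mutant libraries lay below both sibling libraries, as they did for 35.1% of all tested genes. The summed level of the 10 genes was 1240 and 947 CPM in mutants against 2720 and 2650 CPM in siblings. In samples of whole animals, fewer cones and less RNA per cone cannot be told apart.

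**Figure D1:**
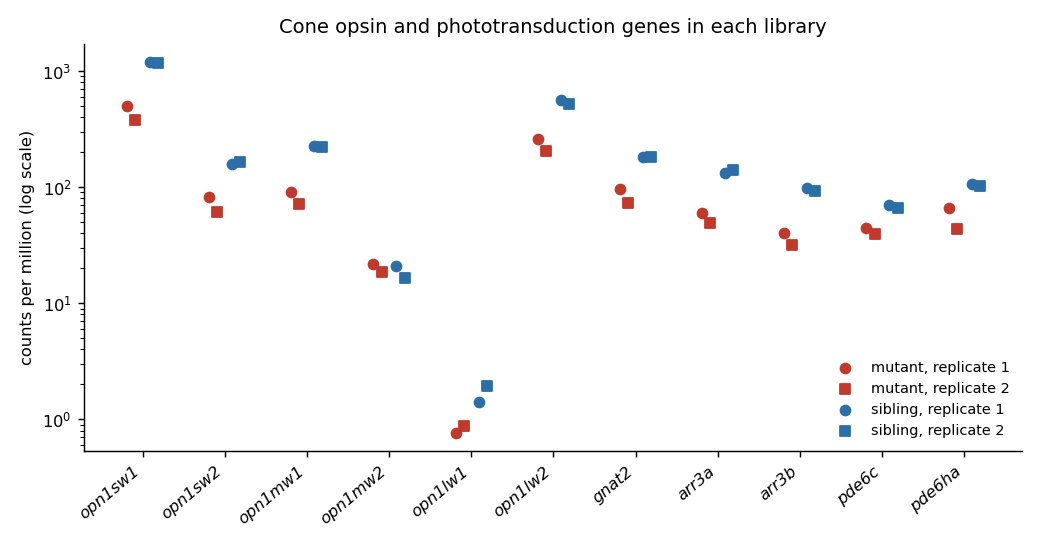
Level of each gene in each library, in CPM on a log axis; red marks are mutant libraries, blue marks sibling libraries, circles replicate 1 and squares replicate 2. The mutant marks lie below the sibling marks for each of the 10 genes, while the marks of the second green opsin gene, opn1mw2, lie between 16.5 and 21.8 CPM in both groups. Levels are not corrected for gene length and are to be compared within a gene only.

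The mutant libraries differed from each other in the cone genes, and also in other genes described below. Of the 10 genes, 9 were higher in mutant replicate 1 than in mutant replicate 2, the exception being opn1lw1, and the summed level was 1.31 times as high. Between the sibling libraries the corresponding ratio was 1.02, and 6 of the 10 genes were higher in sibling replicate 1. In mutant replicates 1 and 2, other genes of the cone pathway summed to 592 and 488 CPM and lens genes to 475 and 381 CPM. Rod genes summed to 542 and 528 CPM, and horizontal cell markers went the other way, at 6.38 and 7.16 CPM. The share of all tested genes that were higher in mutant replicate 1 was not counted. Leaving out either mutant library moved the size of each fall but ended the call of opn1lw1 only.

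The UV opsin gene opn1sw1 stood at 502 and 375 CPM in mutants and at 1180 and 1160 CPM in siblings. This was a log2 fold change of -1.42 ± 0.10 (95% interval -1.62 to -1.21), so siblings had 2.67 times the mutant level. The green opsin gene opn1mw1 stood at 90.1 and 72.0 CPM in mutants and at 224 and 223 CPM in siblings. The sibling libraries lay almost on one value and the mutant libraries well below it, with a log2 fold change of -1.47 ± 0.09 (-1.66 to -1.27). Among the 5 cone opsin genes these were the falls of largest size.

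The blue opsin gene opn1sw2 stood at 81.9 and 61.0 CPM in mutants and at 159 and 165 CPM in siblings. Its log2 fold change was -1.18 ± 0.10 (-1.39 to -0.97), a 2.27-fold lower level in mutants. Of the red opsin copies, opn1lw2, which is known in zebrafish as the copy expressed early in life, stood at 261 and 203 CPM in mutants and at 560 and 523 CPM in siblings. It changed by -1.22 ± 0.10 (-1.42 to -1.03), with the groups well apart.

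The other red copy, opn1lw1, known for its later onset, was read at very low counts. The mutant libraries held 13 and 16 of its counts and the sibling libraries 20 and 40, and its log2 fold change was -1.05 ± 0.39 (-1.86 to -0.25). The call (edgeR adjusted p = 0.0302) was lost in DESeq2 (adjusted p = 0.205). It was also lost in edgeR without mutant replicate 1 (adjusted p = 0.0967), mutant replicate 2 (0.0525) or sibling replicate 2 (-0.77, adjusted p = 0.338). Its counts made up between 0.252% and 0.432% of the red opsin counts of a library, and the 95% Wilson intervals of all 4 libraries overlapped. These intervals cover counting error only. How reads that match both copies were counted is not given in the sources used here, so reads of opn1lw2 placed on opn1lw1 cannot be told apart from opn1lw1 itself at this level. With the 2 copies summed the red opsins changed by -1.22.

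Ordered from the largest fall, the opsin genes were opn1mw1, opn1sw1, opn1lw2, opn1sw2 and opn1lw1. Of the 10 pairs among them, 1 had a difference in log2 fold change whose 95% interval excluded 0, with standard errors added as for independent genes and no adjustment for the number of pairs. That pair was blue against green: opn1sw2 fell less than opn1mw1 by 0.28 ± 0.14 (0.001 to 0.567). With the 4 green copies summed to 1 value the difference was 0.08 and its interval held 0. The interval also held 0 without sibling replicate 1 (0.25) or sibling replicate 2 (0.32), and at 0.28 with RLE size factors, library totals only or no filter. UV against blue differed by -0.23 ± 0.14 (-0.53 to 0.06), UV against green by 0.05 ± 0.14 (-0.23 to 0.33) and UV against red (opn1lw2) by -0.19 ± 0.14 (-0.47 to 0.09). Blue against red (opn1lw2) differed by 0.04 ± 0.14 (-0.24 to 0.33). Green against red (opn1mw1 and opn1lw2) differed by -0.24 ± 0.13 (-0.515 to 0.033). With a replicate block the interval excluded 0 for UV against blue and for green against red (-0.24 for each). It also excluded 0 for both without mutant replicate 1 (-0.23 and -0.22) or mutant replicate 2 (-0.24 and -0.26). For UV against red it excluded 0 without mutant replicate 1 (-0.23). Fits without a mutant library take their spread from the sibling libraries only. The summed level of the 10 genes differed 1.31-fold between mutant libraries and 1.02-fold between sibling libraries. For UV against blue, green against red and UV against red, the log2 ratios within a library were not more spread in mutants. Their SDs in mutants and siblings were 0 and 0.07 for opn1sw1 to opn1sw2 and 0.03 and 0.06 for opn1mw1 to opn1lw2. For opn1sw1 to opn1lw2 they were 0.04 and 0.05. Other pairs varied: the SDs in mutants and siblings were 0.07 and 0.05 for opn1sw2 to opn1mw1 and 0.07 and 0.02 for opn1sw1 to opn1mw1. For opn1sw2 to opn1lw2 they were 0.05 and 0.11. Each SD is of 2 values only.

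Ratios of counts within a library do not depend on how libraries are scaled. They also cancel a shift shared by both genes, which standard errors added as for independent genes count as spread. Of the 10 genes, 9 were higher in mutant replicate 1 than in mutant replicate 2. In the siblings, 6 were higher in replicate 1 than in replicate 2. Covariance between genes was not estimated, so whether the intervals of the differences above are too wide is not known. An interval that held 0 does not show equal falls, and an interval that excluded 0 was not adjusted for the number of pairs. With 2 libraries per group an exact permutation test has 6 groupings and cannot give a two-sided p below 0.333. The log2 ratio of opn1sw1 to opn1sw2 was 2.62 and 2.62 in mutants against 2.90 and 2.81 in siblings, so the mutants lay below the siblings (exact permutation p = 0.333). The log2 ratio of opn1sw1 to opn1lw2 was 0.95 and 0.88 in mutants and 1.08 and 1.14 in siblings, again without overlap (exact permutation p = 0.333). The ratios of opn1sw1 to opn1mw1 and of opn1sw2 to opn1lw2 overlapped between the groups. As a share of the summed counts of the 5 opsins, opn1sw1 took 53.2% ± 0.716 in mutants and 55.7% ± 0.175 in siblings (SD, n = 2 each), and opn1lw2 took 28.2% ± 0.475 and 25.8% ± 0.737. The shares of opn1sw2 were 8.67% ± 0.128 and 7.72% ± 0.375, and those of opn1mw1 were 9.88% ± 0.340 and 10.7% ± 0.168. Each of these 4 shares was separated between the groups (exact permutation p = 0.333), with mutants minus siblings between -2.57 and 2.39 percentage points. The shares are parts of the same sum, so lower shares of some genes go with higher shares of others. The 4 separations are therefore not independent results.

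The second green copy, opn1mw2, differed from opn1mw1. The mutant libraries held 369 and 339 of its counts and the sibling libraries 298 and 340, or 21.8 and 18.7 CPM against 21.1 and 16.5 CPM, and the groups overlapped. Its log2 fold change was 0.12 ± 0.13, with a 95% interval of -0.15 to 0.39 (edgeR adjusted p = 0.491). Leaving out 1 library at a time gave values between -0.06 and 0.29. The interval excludes a fall of the size seen in opn1mw1: the log2 fold changes of the neighbouring copies differed by 1.59 ± 0.16 (1.25 to 1.92).

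Among green opsin counts the share of opn1mw2 was therefore higher in mutants. It was 19.5% (95% Wilson interval 17.8 to 21.3) and 20.6% (18.7 to 22.6) in the mutant libraries. In the sibling libraries it was 8.60% (7.71 to 9.58) and 6.87% (6.20 to 7.61). No interval of a mutant library met one of a sibling library, but these intervals cover counting error only. The exact permutation p was 0.333, the smallest that 2 against 2 libraries allow. The comparison of opn1mw2 with opn1mw1 was singled out after the values were seen. Reads that match more than 1 green copy make the split between them uncertain. The other green copies were at the floor of detection, with 0 and 2 counts of opn1mw3 in mutants against 2 and 3 in siblings, and 0 and 0 counts of opn1mw4 in mutants against 0 and 4 in siblings, so no fold is given for them. With all 4 green copies summed the log2 fold change was -1.26.

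**Figure D2:**
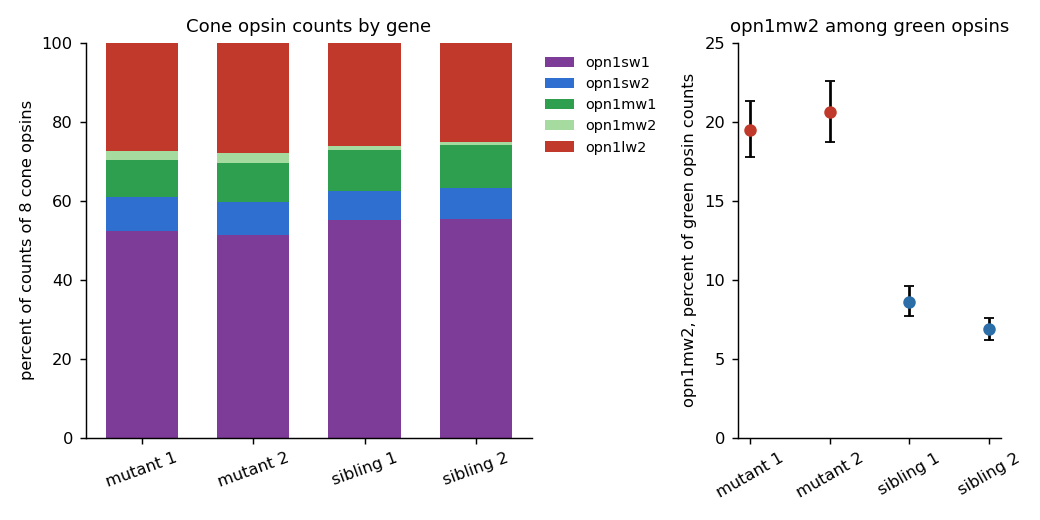
Left, stacked bars of the percentage of the summed counts of 8 cone opsin genes taken by each gene in each library; opn1lw1, opn1mw3 and opn1mw4 together are too small to be visible. Right, percentage of the counts of the 4 green opsin copies assigned to opn1mw2, with 95% Wilson intervals that cover counting error only, at 19.5% and 20.6% in mutants against 8.60% and 6.87% in siblings.

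Downstream of the opsins, gnat2, which encodes the alpha subunit of cone transducin, stood at 95.6 and 72.3 CPM in mutants and at 181 and 183 CPM in siblings. It changed by -1.12 ± 0.10 (-1.32 to -0.92). The arrestin gene arr3a, which in zebrafish is expressed in red and green cones, stood at 60.2 and 48.6 CPM in mutants and at 133 and 141 CPM in siblings. Its counterpart arr3b, which is expressed in UV and blue cones, stood at 40.4 and 31.9 CPM in mutants and at 98.8 and 91.8 CPM in siblings. The groups were well apart in both, the log2 fold changes were -1.33 ± 0.10 for arr3a and -1.40 ± 0.10 for arr3b, and these differed by -0.07 ± 0.14 (-0.35 to 0.22). The log2 ratio of arr3b to arr3a within a library was -0.58 and -0.61 in mutants and -0.43 and -0.61 in siblings, and the groups overlapped.

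The phosphodiesterase genes had the smallest falls of the 10 with all libraries in the fit. The gene of the catalytic subunit, pde6c, stood at 44.4 and 39.1 CPM in mutants and at 70.5 and 66.4 CPM in siblings. Its log2 fold change was -0.71 ± 0.10 (-0.91 to -0.51), or a 1.64-fold lower level. The gene of the inhibitory subunit, pde6ha, stood at 66.3 and 43.5 CPM in mutants and at 106 and 103 CPM in siblings. It changed by -0.93 ± 0.12 (-1.17 to -0.69), and the mutant libraries were far apart: without mutant replicate 1 it was -1.27, and without mutant replicate 2 it was -0.66. Its rank moved with the libraries: opn1lw1 was nearer to 0 than pde6ha without mutant replicate 1 (-0.97) and without sibling replicate 2 (-0.77 against -0.95 for pde6ha).

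Set against gnat2, some members had a higher ratio in mutants and others a lower one, and several of these differences were small. Only for pde6c was the difference from gnat2 given an interval. The log2 ratio of pde6c to gnat2 was -1.11 and -0.89 in mutants and -1.36 and -1.47 in siblings, so mutants were higher by 0.42 with no overlap (exact permutation p = 0.333). The difference of their log2 fold changes was 0.41 ± 0.14 (0.13 to 0.69), and pde6c differed from opn1sw1 by 0.70 ± 0.14 (0.42 to 0.99). These pairs were chosen after the values were seen. The ratio of pde6ha to gnat2 was also higher in mutants, by 0.17. The ratios to gnat2 of opn1mw1 and opn1sw1 were lower in mutants by 0.34 and 0.30 on the log2 scale, and those of arr3b and arr3a by 0.28 and 0.21. For opn1lw2 and opn1sw2 the ratio was lower by 0.10 and 0.06, again without overlap, and for opn1lw1 the groups overlapped. All of these have an exact permutation p of 0.333 or more.

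Of 30 further genes of the cone pathway, 26 were found in the table and 23 passed the filter. Of these 23, 19 were lower, 0 higher and 4 did not pass in edgeR's quasi-likelihood test, with a median log2 fold change of -1.14, against 21.0% called lower over all tested genes. The transducin beta genes gnb3a (-1.37 ± 0.12) and gnb3b (-1.31 ± 0.09) fell, as did the gamma subunit gene gngt2b (-1.24 ± 0.10). The fall of largest size was that of the other gamma subunit gene, gngt2a. It stood at 37.9 and 27.9 CPM in mutants and at 154 and 149 CPM in siblings, a log2 fold change of -2.20 ± 0.11, so siblings had 4.60 times the mutant level. The cone cyclic GMP-gated channel genes cnga3a (-1.19 ± 0.27) and cngb3.1 (-1.89 ± 0.18) fell too.

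Among genes that shut off the response, the opsin kinase genes grk7a (-0.68 ± 0.13) and grk1b (-0.97 ± 0.13) fell, and grk7b was at -0.49 ± 0.33, short of the threshold. The gene rgs9a, which encodes an accelerator of transducin inactivation, fell by 1.34 ± 0.20 on the log2 scale. Its paralogue rgs9b was at -0.38 ± 0.15, with an edgeR adjusted p of 0.0476. That call was lost in DESeq2 (adjusted p = 0.206) and in edgeR with library totals only (0.0731) or no filter (0.0566). It was also lost without mutant replicate 2 (-0.28) or sibling replicate 2 (-0.14). The calcium-sensing recoverin genes rcvrn2 (-1.58 ± 0.10) and rcvrn3 (-1.14 ± 0.09) fell.

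Of the genes that restore cyclic GMP and calcium, some passed and others did not. The guanylate cyclase gene gucy2d fell by 1.16 ± 0.13 on the log2 scale. For the cyclase gene gucy2f the value was -0.91 ± 0.29, or -0.49 without mutant replicate 1 and -1.56 without mutant replicate 2; the call was lost in edgeR without mutant replicate 1 (adjusted p = 0.189) or sibling replicate 2 (adjusted p = 0.0798) and in DESeq2 (adjusted p = 0.0967). The cyclase activator genes guca1c (-1.89 ± 0.30) and guca1e (-0.77 ± 0.18) fell, while guca1g was at -0.37 ± 0.50 and did not pass. The calcium exchanger gene slc24a2 (-0.76 ± 0.11), the synaptic calcium channel gene cacna1fb (-1.01 ± 0.13) and the potassium channel subunit gene kcnv2a (-1.61 ± 0.32) fell. The paralogue kcnv2b, at 1.60 and 1.16 CPM in mutants and 1.42 and 1.12 CPM in siblings, was at 0.14 ± 0.38 and did not pass, as opn1mw2 did not.

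**Figure D3:**
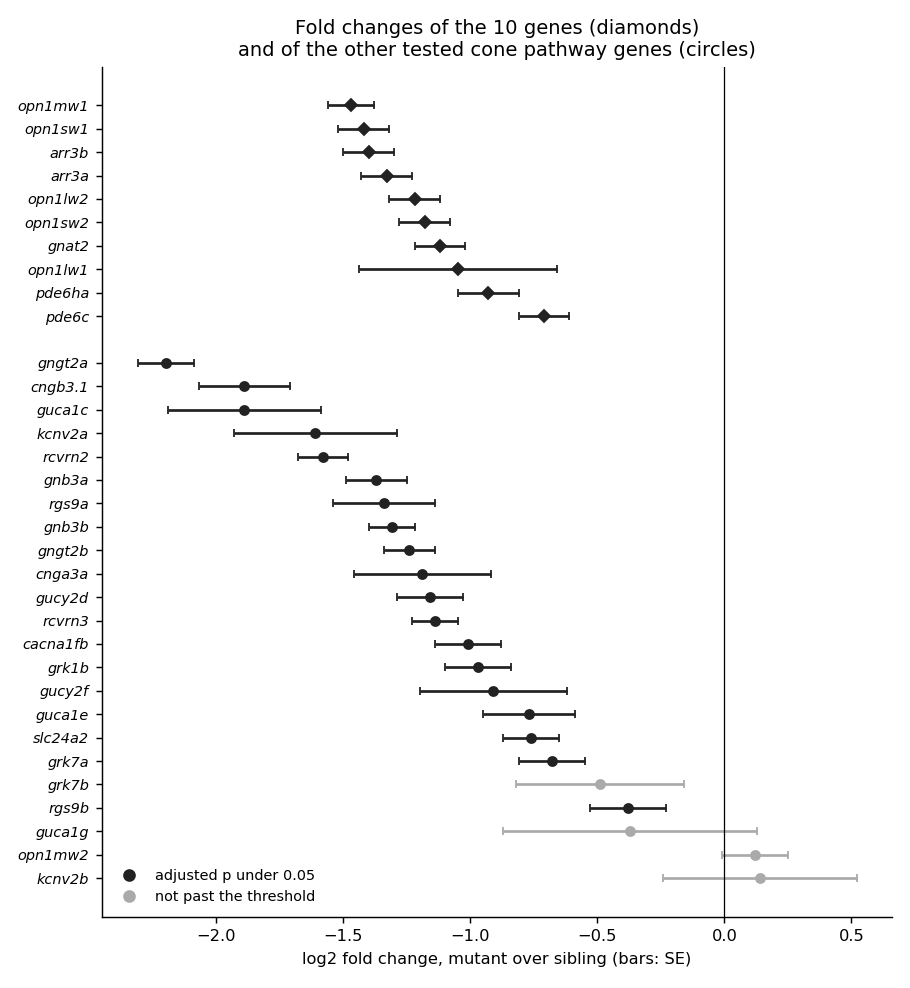
Log2 fold change, mutant over sibling, with its SE, for the 10 genes (diamonds) and for the 23 other tested genes of the cone pathway (circles), ordered by size; black marks passed an adjusted p of 0.05 in edgeR and grey marks did not. The diamonds lie between -1.47 and -0.71, and gngt2a at -2.20 lies farthest from 0 among the circles.

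Regulators of photoreceptor and cone type identity were also lower. Of 20 such genes, 17 were lower, 1 higher and 2 did not pass in edgeR's quasi-likelihood test, with a median log2 fold change of -1.35; over all tested genes 21.0% were lower and 22.9% higher. The photoreceptor transcription factor genes neurod1 (-1.63 ± 0.09), crx (-1.65 ± 0.12) and otx5 (-1.21 ± 0.10) fell. The gene of the transcriptional repressor prdm1a was higher, by 0.71 ± 0.13.

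Factors known in zebrafish to direct single cone types are given for their role, as a choice made after the values were seen. The samples were whole animals, so these values are not of cones alone. Of the same list, tbx2a was at -0.61 ± 0.12, and rxrga did not pass, at -0.04 ± 0.18. The gene six7, needed for green opsin expression, stood at 8.57 and 9.14 CPM in mutants and at 28.3 and 30.5 CPM in siblings, a log2 fold change of -1.73 ± 0.13. For thrb, the thyroid hormone receptor gene needed for red cones, the value was -0.77 ± 0.11. For tbx2b, needed for UV cones and expressed in many other tissues, it was -0.25 ± 0.10 at an adjusted p of 0.0388 in edgeR. That call was lost in DESeq2 (adjusted p = 0.113) and in edgeR with library totals only (0.0631). It was also lost without mutant replicate 1 (-0.19), sibling replicate 1 (-0.21) or sibling replicate 2 (-0.30). For foxq2, a factor of blue cones, 4 and 2 counts in mutants stood against 10 and 42 in siblings, with a fitted log2 fold change of -3.07 ± 0.64 that was -2.00 without sibling replicate 2 (adjusted p = 0.102 in edgeR).

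The rod opsin gene fell further than the cone opsin genes. The gene rho, of the rod opsin, stood at 56.5 and 48.2 CPM in mutants and at 553 and 502 CPM in siblings. The log2 ratio of the summed counts of the 5 cone opsins to rho was 4.05 and 3.88 in mutants against 1.94 and 2.04 in siblings, so it was higher in mutants by 1.97 with no overlap (exact permutation p = 0.333). Ratios of cone and rod genes are not corrected for gene length, and only their difference between groups is read here. The log2 fold change of opn1sw1 differed from that of rho by 1.92 ± 0.14 (1.63 to 2.20), and that of opn1mw1 by 1.87 ± 0.14 (1.59 to 2.14).

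Further down the cascade, 6 pairs of a cone gene and a rod gene, chosen after the values were seen, had the same direction. For transducin alpha, gnat2 against gnat1 differed in log2 fold change by 1.48 ± 0.17, and for the catalytic phosphodiesterase, pde6c against pde6b differed by 1.53 ± 0.21. For arrestin, arr3a against sagb differed by 1.38 ± 0.16, and for the opsin kinase, grk7a against grk1a differed by 2.22 ± 0.26. The difference was 1.0 ± 0.17 for transducin gamma, gngt2b against gngt1. For the inhibitory phosphodiesterase subunit, pde6ha against pde6gb, it was 0.53 ± 0.17 (0.19 to 0.88). In each of these 6 pairs the within-library ratio of both mutant libraries lay above that of both sibling libraries.

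Other cone and rod genes of these lists, also named after their values were seen, lay close to each other or in the opposite order, and their differences were not tested. The log2 fold changes were -2.20 for gngt2a and -2.24 for gngt1. They were -0.93 ± 0.12 for pde6ha and -0.94 ± 0.30 (-1.56 to -0.32) for pde6ga, another rod inhibitory subunit gene. The mutant libraries held 25 and 28 counts of pde6ga and the sibling libraries 38 and 63. Its call was lost in DESeq2 (adjusted p = 0.113) and in edgeR without sibling replicate 2 (-0.83). For the channel beta subunits they were -1.89 for cngb3.1 and -1.83 for cngb1a, and among cyclase activators -1.89 for guca1c and -1.21 for guca1a. For transducin beta the cone genes gnb3a and gnb3b fell, while gnb1a was at -0.07 ± 0.08 and did not pass. It stood at 238 and 244 CPM in mutants and at 259 and 247 CPM in siblings. The samples were whole animals, so the level of gnb1a is not of rods alone. Of 20 tested rod genes, 18 were lower and 1 higher, with a median of -2.24, against 21.0% lower and 22.9% higher over all tested genes. The gene that was higher, gnb1b (0.24 ± 0.08), encodes a transducin beta subunit made in many tissues, and its call was lost without either sibling library.

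**Figure D4:**
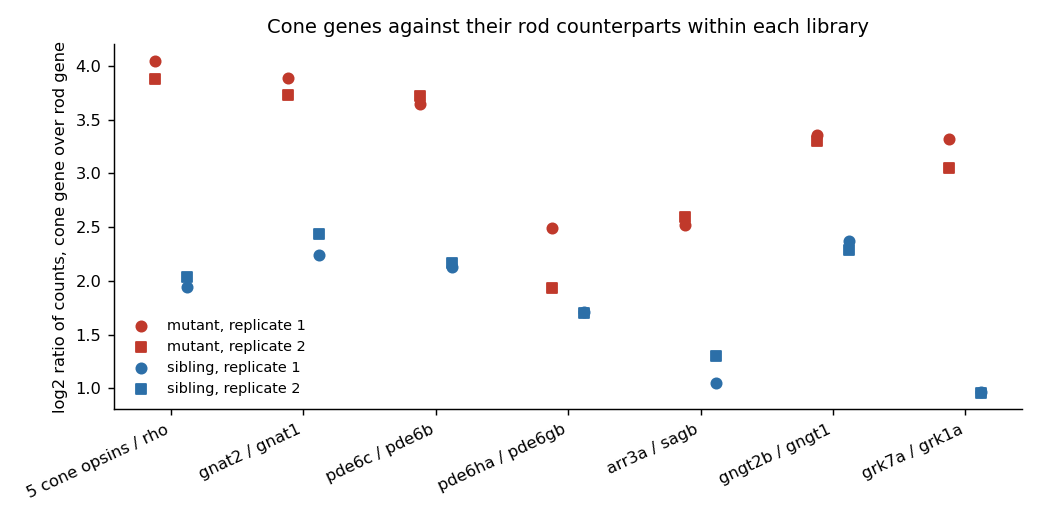
Log2 ratio of the counts of a cone gene to those of a rod gene within each library (vertical axis), for the summed cone opsins against rho and for 6 pairs of phototransduction genes chosen after their values were seen; red marks are mutant libraries and blue marks sibling libraries. For cone opsins against rho the ratio was 4.05 and 3.88 in mutants and 1.94 and 2.04 in siblings, and in all 7 comparisons the mutant marks lie above the sibling marks.

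Other gene lists of the eye, of which the first is of photoreceptors themselves, differed in how much they moved with the cone genes. Of 11 tested outer segment and photoreceptor structure genes, all 11 were lower (21.0% over all tested genes), with a median of -1.45; the disc rim genes prph2a (-1.61 ± 0.10) and prph2b (-1.57 ± 0.11) fell, as did prom1b (-1.20 ± 0.09), an outer segment membrane gene, and rp1l1a (-1.43 ± 0.14), an axoneme gene. Of 20 tested markers of other retinal cells, 14 were lower and 1 higher, with a median of -0.52, against 21.0% and 22.9% over all tested genes. The counts were lower without either sibling library, at 9 called lower. The falls in that list included the bipolar cell gene vsx1 (-1.65 ± 0.13), the ganglion cell genes pou4f2 (-1.29 ± 0.12) and rbpms2b (-0.75 ± 0.10), and the visual cycle gene rlbp1a of Muller glia (-0.88 ± 0.14). The paralogue rbpms2a did not pass, at 0.03 ± 0.09, with 81.0 and 70.0 CPM in mutants and 76.6 and 71.0 CPM in siblings. Among Muller glia markers, glula was at -0.25 ± 0.09, and cahz did not pass, at 0.16 ± 0.10. For cahz both mutant libraries lay above both sibling libraries, at 35.3 and 37.4 CPM against 31.8 and 33.2 CPM. The bipolar cell gene cabp5a did not pass either, at 0.36 ± 0.19. All of these were named after their values were seen. The gene called higher was rlbp1b of the retinal pigment epithelium (0.30 ± 0.09). That call was lost in DESeq2 (adjusted p = 0.0587) and in edgeR without sibling replicate 2 (0.19).

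By summed level, the 10 cone markers stood at 947 to 1240 CPM in mutants and 2650 to 2720 CPM in siblings, and the 7 rod markers at 76.0 to 91.2 and 664 to 735 CPM. The 5 bipolar markers stood at 53.1 to 59.4 CPM in mutants and 91.2 to 93.0 CPM in siblings. The 3 ganglion cell markers isl2b, rbpms2b and atoh7, without rbpms2a, stood at 37.4 to 39.4 and 60.1 to 69.9 CPM. The 2 horizontal cell markers measured stood at 6.38 to 7.16 and 9.0 to 9.5 CPM. Most of that sum was rem1, at 6.09 and 7.05 CPM in mutants and 7.65 and 8.92 CPM in siblings. It did not pass, at -0.35 ± 0.18. The other, cx52.6, had 5 and 2 counts in mutants and 19 and 12 in siblings. Its log2 fold change was -2.13 ± 0.66, and its call was lost in DESeq2 (adjusted p = 0.0742). The call was also lost in edgeR without mutant replicate 2 (-1.58) or sibling replicate 1 (-1.51). The 3 Muller glia markers stood at 304 to 353 CPM in mutants and 385 to 390 CPM in siblings, but glula among them is made in many tissues. The 2 pigment epithelium markers stood at 183 to 199 and 154 to 184 CPM. No marker was at 0 in any library, and the part of a smaller eye or retina in the falls of the cone genes was not tested.

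The pineal organ also holds photoreceptors. Of its 6 markers, exorh and parietopsin stood on more than 1 row each and were not used, and the other 4 were tested: aanat2, of melatonin synthesis, fell by 1.27 ± 0.26 on the log2 scale, and asmt, parapinopsina and parapinopsinb did not pass. Their summed level was 9.91 to 11.3 CPM in mutants and 11.3 to 14.7 CPM in siblings. The lens, which lies outside the retina, had all 10 tested genes lower (21.0% over all tested genes), with a median of -2.60, among them mipa, mipb, cryba2b and lim2.4, and its 3 markers summed to 112 to 137 CPM in mutants and 779 to 802 CPM in siblings.

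**Figure D5:**
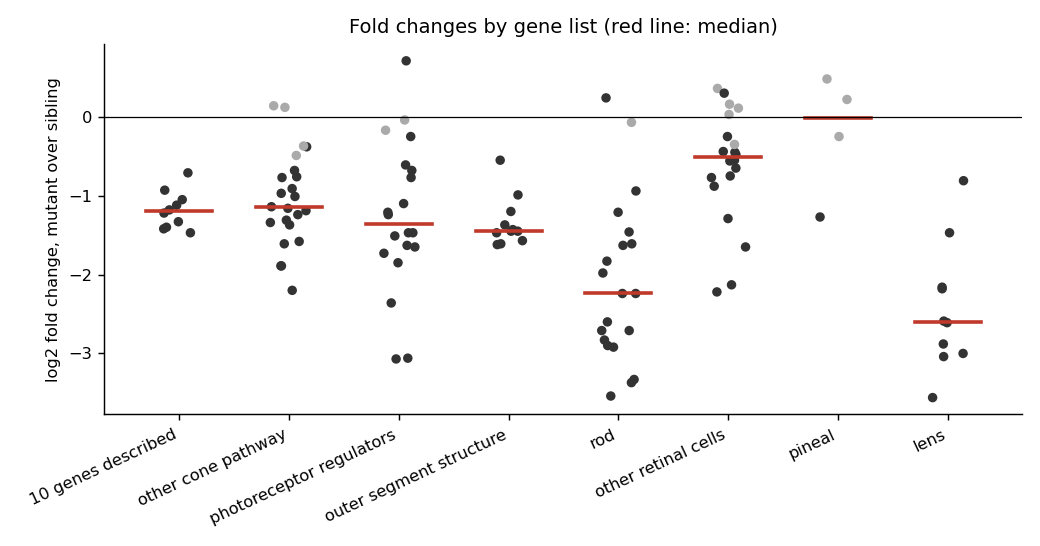
Log2 fold change, mutant over sibling, of each tested gene in 8 lists; black points passed an adjusted p of 0.05 in edgeR, grey points did not, and the red line is the median of the list. Medians were -1.20 for the 10 genes described, -1.14 for the rest of the cone pathway, -2.24 for rod genes, -0.52 for other retinal cells and -2.60 for lens.

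Genes outside these lists were ranked by how closely their level over the 4 libraries followed the mean of the 5 cone opsins. The measure was the root mean square difference of log2 CPM centred on each gene's mean. Of 11614 candidates, the 5 nearest were aqp9b (0.0118), syt5b (0.0198), atp2b1b (0.0290), dlb (0.0324) and coro1a (0.0363), with log2 fold changes between -1.30 and -1.21. The opsin genes themselves lay between 0.061 for opn1sw2 and 0.260 for opn1lw1, and 280 candidates lay no farther than opn1lw1. With 4 libraries in 2 groups the measure depends mostly on the difference between the groups.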

How the data were processed

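RNA from whole 7 dpf zebrafish was sequenced in 2 mutant and 2 sibling libraries. The authors deposited raw read counts per gene, unnormalized. Tools named in the submitters' processing notes were STAR 2.7.10a, DESeq2 1.26.0, fastp 0.23.2, R 4.2.2 and featureCounts 2.0.1, and the build named was GRCz11. In the sources used here, the annotation, use of strand in counting and handling of reads matching several copies were not given. The labels gave groups and the numbers of biological replicates.

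The whole table was fitted with edgeR 4.0.16 (R 4.3.3): filterByExpr at its defaults left 20097 of 23236 rows, libraries were scaled with TMM, and p-values of the quasi-likelihood test (glmQLFit, legacy=FALSE; glmQLFTest) were adjusted by Benjamini-Hochberg over all tested rows, with a threshold of 0.05. SEs are the size of the log2 fold change over the square root of F. CPM use TMM-scaled totals. Intervals of a difference add both SEs in quadrature. Gene names on more than 1 row (125) were left out of the lists. The procedure was tested on simulated data. Alternatives were DESeq2 1.42.0, other scalings, no filter, summed copies, a replicate block and leaving out each library.

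The genes and the 7 further lists (128 entries, 115 found) were chosen with earlier results of these data known. Named genes were the 10, the green copies, tubgcp6, rho, the cone pathway list, up to 4 genes of smallest p in other lists with any called against its list's median, and the 5 nearest profiles (average log2 CPM of at least 3); others are marked as chosen afterwards.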

Additional observations from a re-analysis of the deposited data

How the results depend on the processing

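Of 93 recomputed fold changes of the 10 genes, 89 kept their direction and their side of the threshold; the other 4 were all of opn1lw1, which lost its call in DESeq2 (-1.04) and ran from -1.23 to -0.77 with 1 library left out. Over all genes, calls ran from 2429 to 4680 lower and from 2977 to 4840 higher with 1 library left out. The blue against green difference in fold change stayed at 0.28 but its interval held 0 with RLE size factors, with library totals only and without a filter, and it was 0.08 with green copies summed; without 1 library it ran from 0.23 to 0.33, and its interval held 0 without sibling replicate 1 (0.25) or sibling replicate 2 (0.32). The cause of these changes was not tested. Without 1 library the difference ran from -0.28 to -0.19 for opn1sw1 against opn1sw2 and from -0.23 to -0.16 for opn1sw1 against opn1lw2. For opn1mw1 against opn1lw2 it ran from -0.29 to -0.20. Intervals of these pairs excluded 0 in some of the fits without a mutant library, where the spread comes from the sibling libraries only. The labels do not say that replicate numbers mark shared clutches, and deviations of same-numbered libraries correlated at 0.041. With a replicate block the intervals of opn1sw1 against opn1sw2 (-0.24) and opn1mw1 against opn1lw2 (-0.24) excluded 0, and no call of the 10 genes changed. With 8 opsins in the sum the share of opn1sw1, mutant minus sibling, was -3.35 percentage points in place of -2.57, and gnat2 against gnat1 gave 1.47 in place of 1.97 for the cone to rod ratio. Leaving out 1 library gave list medians from -2.39 to -2.10 for rod, -1.48 to -1.30 for outer segment, -0.23 to 0.33 for pineal and -2.71 to -2.50 for lens genes. For the other cone pathway genes the median ran from -1.09 to -0.98, nearer to 0 than the -1.14 with all libraries. It gave 0 to 1 rod genes called higher, and 9 to 13 called lower and 0 to 3 called higher among other retinal cells, where DESeq2 called 0 higher. Depth limits opn1lw1, opn1mw3, opn1mw4, guca1g, foxq2 and cx52.6, which had few counts.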
